A study of Mus musculus with 103 samples.

Results

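The 58 genes described here drive the cell cycle and prepare chromosomes for replication. They are the rows, out of 7894 genes in the table, whose symbols match a fixed pattern of cyclin (Ccn), cyclin-dependent kinase (Cdk), E2f, Plk, Aurk, Mcm, Orc, Bub and Cdc names plus Cdt1 and Gmnn. By role they comprise 9 genes with cyclin names, 3 Cdks of the cell cycle and 10 other Cdks, 3 Cdc25 phosphatases and 5 Polo and Aurora kinases. The remainder are 4 spindle checkpoint or anaphase genes, 4 E2F factors, 6 subunits of the origin recognition complex, 6 loading and firing factors, 6 subunits of the Mcm2-7 helicase, and Mcm8 and Mcm9. The pattern did not use expression values.

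Messenger RNA was measured in single FVB mouse embryos at the 2-cell stage, 21 made with whole sperm and 82 with sperm heads. They were collected 28 hours after intracytoplasmic sperm injection, in which sperm are placed directly into an oocyte. Whole sperm gave 12 embryos from the rete testis, the network through which sperm pass out of the testis, and 9 from the cauda epididymis, the store of mature sperm. Sperm heads gave 23 embryos from rete sperm of males on a Low Protein (LP) diet and 22 from rete sperm of males on a Control diet. Cauda sperm heads gave 17 embryos from LP males and 20 from Control males. All oocyte donors ate the Control diet. For the whole-sperm donors, no label states a diet, and a Control diet comes from the table's header alone. Since no label gives a father or an injection day, p-values here measure embryo-to-embryo spread, which may be partly technical.

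As background, cyclins switch on Cdks, and their rise and destruction order the phases of the cell cycle. In G1 the origin recognition complex, Cdc6 and Cdt1 load the ring-shaped Mcm2-7 helicase onto DNA, which licenses each origin to fire once. Geminin, encoded by Gmnn, binds Cdt1 and blocks reloading after S phase begins. E2F factors control transcription of many of these genes in somatic cells. The first division of a mouse embryo runs largely on messenger RNA stored in the oocyte. At the 2-cell stage most of that store is degraded and embryonic transcription rises.

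Levels are in CPM, the reads of a gene scaled to a common library size for every embryo, so they are shares and not amounts per embryo. The step between low values gave a depth of 529863 to 6058308 reads per embryo. Median depth was 2806572 reads in rete and 4091156 in cauda whole-sperm embryos, and 1056545 to 1197679 in the 4 head groups. A difference in preparation therefore comes with a difference in depth, and these cannot be told apart by design. An unusually low number of genes was detected in 4 embryos, which are rete LP head embryo 11, rete Control head embryo 17, cauda Control head embryo 19 and cauda whole-sperm embryo 5. The most similar pairs were rete LP head embryos 20 with 21 (Pearson r = 0.972 over genes) and 22 with 23 (r = 0.942). They differed by more than counting noise and were kept apart. Since spread between libraries may be partly technical, that difference cannot show whether each pair is 2 separate embryos. All 11 oocyte and early embryo markers were in the table. Of markers of other cells, 3 of 8 for cumulus cells, 2 of 8 for sperm and spermatids, 1 of 4 for testicular somatic cells and 1 of 4 for epididymis were in it. Exons of 17 members overlap a gene on the opposite strand by at least 50 bases in the GENCODE annotation. Among them are Cdc20, Cdc25b, Cdc45, Ccna2, Orc4, Orc6 and Mcm7. On either strand 20 members have such an overlap. Those on the same strand, which strand could not separate, are Ccnb1ip1 with Rpph1, Orc5 with Gm15421, Cdk9 with Mir2861 and Mir3960, and Mcm7 with Mir25 and Mir93. Ccnb1, Ccnb2 and Ccnd3 have a named pseudogene. Whether counting used strand is not given in the sources used here, so reads of these pairs cannot be told apart.

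For 29 of the 58 genes both whole-sperm medians lay below all 4 head medians, and for 12 both lay above. Among the 4 head groups, 7 genes had a median more than 2-fold higher in one group than in another. Every gene passed the filter on low values in the head embryos (5 CPM or more in at least 9 embryos), and 57 passed it in whole-sperm embryos alone. By the highest coefficient of variation in any head group, the steadiest gene was Ccna2, encoding cyclin A2, the partner of Cdk2 and Cdk1, at 21.3 to 26.8% over the 4 head groups. By the same measure the least steady was Ccnd1, encoding cyclin D1, the partner of Cdk4, at 59.8 to 189%, close to Ccnd3 at 55.6 to 179% and Cdk5 at 90.9 to 173%. Cdk14 varied by 105 to 147%, above 100% in every head group.

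**Figure D1:**
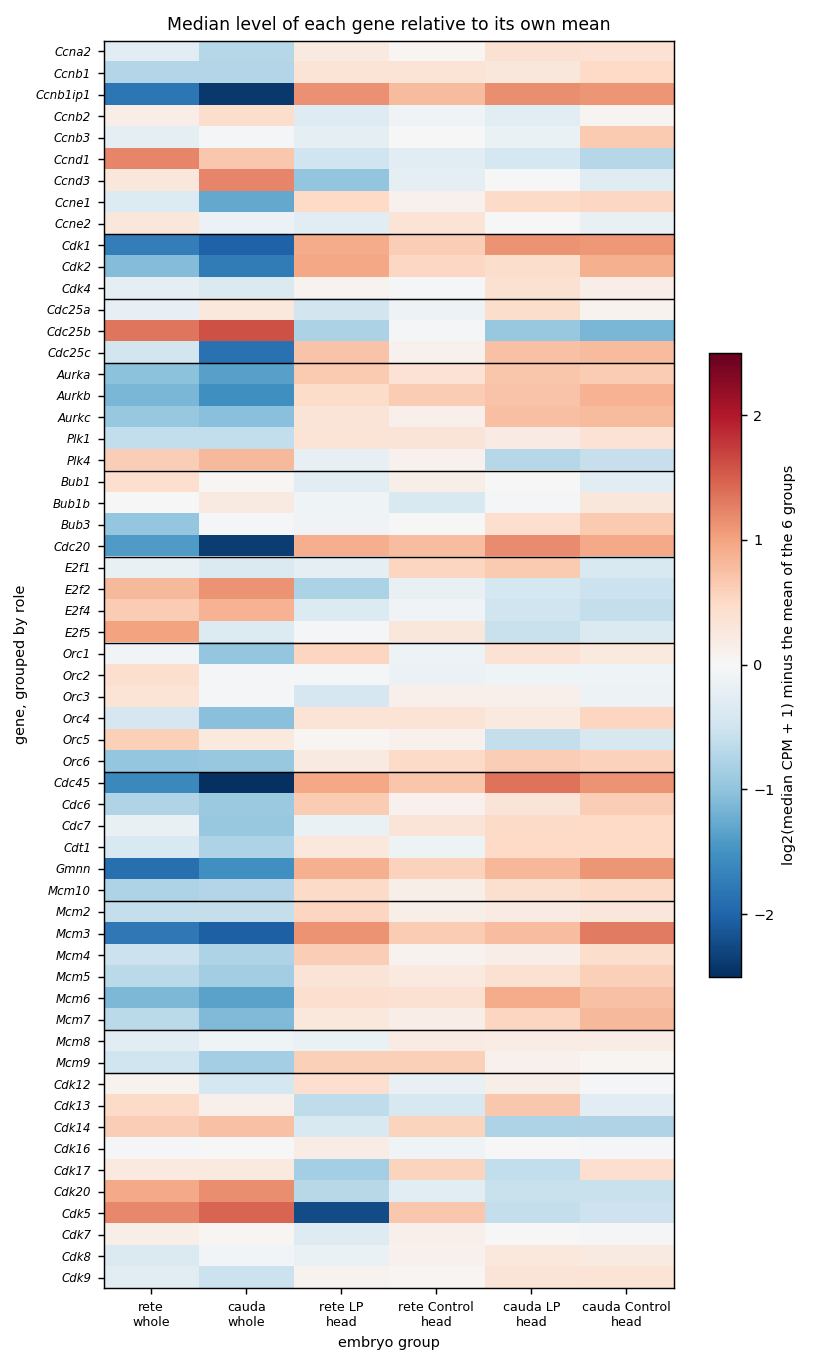
Median level of each of the 58 genes in the 6 embryo groups (columns), shown as log2(median CPM + 1) minus the mean of the 6 groups, with genes in rows by role. Blue cells in the 2 whole-sperm columns for Ccnb1ip1, Cdc45, Mcm3, Cdc20 and Cdk1 and red cells for Cdc25b, Cdk5 and Cdk20 mark the 5 most negative and 3 most positive differences between the mean of the whole-sperm columns and that of the head columns, from -3.15 for Ccnb1ip1 to 2.21 for Cdc25b.

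Embryos made with whole sperm were compared with embryos made with Control sperm heads of the same source. The groups differ in whether the rest of the sperm cell was injected and also in depth. No label gives the diet of the whole-sperm donors or an injection day. A difference between these groups therefore cannot be assigned to the injected part alone by design. Of the members that passed the test, more were lower than higher in whole-sperm embryos, although many passed in neither comparison. With cauda sperm (9 against 20 embryos) 28 of the 58 genes were lower and 6 higher. Of all 7894 genes tested, 58.7% changed in this comparison, 34.3% lower and 24.4% higher. With rete sperm (12 against 22) 14 of the 58 were lower and 6 higher, where 33.6% of all genes changed, 19.5% lower and 14.1% higher. The median log2 fold change of the 58 genes was -0.64 for cauda and -0.24 for rete sperm, beside -0.08 and 0.03 over all genes. With cauda sperm the share of members lower was thus above the background and the share higher below it, and with rete sperm both were nearer the background. Counting both directions, 24 of the 58 did not pass with cauda and 38 did not pass with rete sperm. The share of members called in either direction was thus close to the 58.7% and 33.6% of all genes. Of the genes lower with cauda sperm 13 of 28, and of those lower with rete sperm 13 of 14, were lower in both comparisons. Quantile normalization turned the split over all genes with cauda sperm to 2776 higher of 5127 called, beside 1929 higher of 4634 without it. Another 5 members were higher in both, none moved in opposite directions, and 22 passed in neither. A log2 fold change here is that of CPM + 1, given ± its standard error, and the threshold is a limma adjusted p of 0.05 over all genes.

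All 6 genes of the Mcm2-7 helicase were lower with cauda whole sperm, and 1 of them, Mcm3, was lower with rete whole sperm. Under quantile normalization 3 and under median-of-ratios scaling 4 of the 6 still passed with cauda sperm, and all 6 kept negative log2 fold changes under both. Mcm3 had a lowest, median and highest level of 0.1, 15.7 and 61.4 CPM in embryos from cauda whole sperm, against 5.47, 167 and 428 CPM in cauda Control head embryos. All 9 whole-sperm embryos lay below the Control head median, although the groups overlapped (log2 fold change -3.38 ± 0.65, limma adjusted p = 8.59e-06). For rete sperm the Mcm3 levels ran over 0.1, 18.9 and 59.7 CPM in embryos from rete whole sperm, against 0.1, 105 and 228 CPM in rete Control head embryos. Again all 12 whole-sperm embryos were below the Control head median (-2.08 ± 0.58, limma adjusted p = 0.00488). With cauda sperm the log2 fold changes of the other helicase genes were -1.99 ± 0.40 for Mcm6, -1.97 ± 0.40 for Mcm7, -1.14 ± 0.39 for Mcm5, -0.95 ± 0.35 for Mcm4 and -0.89 ± 0.38 for Mcm2. With rete sperm these 5 ran from -0.77 ± 0.36 for Mcm6 to -0.22 ± 0.35 for Mcm5 and did not pass. Mcm8 and Mcm9, relatives that act in recombination rather than licensing, passed in neither comparison, with -0.12 ± 0.59 and -0.53 ± 0.43 for cauda sperm.

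Among the factors that load or fire the helicase, 5 of 6 were lower with cauda and 2 of 6 with rete whole sperm. Gmnn had a lowest, median and highest level of 11.1, 63.2 and 241 CPM in embryos from cauda whole sperm, against 52.8, 398 and 725 CPM in cauda Control head embryos. Every whole-sperm embryo was below the Control head median for this licensing inhibitor, and the groups overlapped at their edges (-2.79 ± 0.38, limma adjusted p = 3.36e-09). With rete sperm the Gmnn values were 32.4, 49.4 and 205 CPM in embryos from rete whole sperm, against 53.6, 276 and 1055 CPM in rete Control head embryos (-1.87 ± 0.34, limma adjusted p = 2.89e-05). Cdc45, which joins the Mcm ring in the active helicase, showed the same order. Cdc45 had a lowest, median and highest level of 20.4, 30.2 and 132 CPM in embryos from cauda whole sperm, against 27.3, 389.5 and 748 CPM in cauda Control head embryos (-2.99 ± 0.44, limma adjusted p = 2.46e-08). In rete sperm its log2 fold change was -1.75 ± 0.40 (limma adjusted p = 5.05e-04), with all 12 whole-sperm embryos below the Control head median. Cdc6 (-1.50 ± 0.37), Mcm10 (-1.25 ± 0.42) and Cdt1 (-0.98 ± 0.36) were lower with cauda whole sperm only by this threshold, and the difference between sources was not tested. Cdc7, the kinase that triggers origin firing, had -0.76 ± 0.69 with cauda sperm and did not pass.

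The origin recognition complex did not move as a unit. Orc6 was lower in both comparisons (-1.26 ± 0.29 for cauda and -1.50 ± 0.26 for rete sperm, limma adjusted p = 1.38e-04 and 1.22e-05), as was Orc4 (-1.46 ± 0.35 and -0.86 ± 0.31). Orc1, the largest subunit, was lower with cauda sperm (-1.54 ± 0.41) and had 0.22 ± 0.37 with rete sperm. Orc2 was higher with rete whole sperm (0.73 ± 0.19, limma adjusted p = 0.00192) and had -0.06 ± 0.21 with cauda sperm. Its levels were 191, 305 and 819 CPM in embryos from rete whole sperm, against 104, 205 and 279 CPM in rete Control head embryos. Orc3 and Orc5 passed in neither comparison.

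Cdk1 is the kinase that drives entry into mitosis. Cdk1 had a lowest, median and highest level of 18.6, 90.7 and 382 CPM in embryos from cauda whole sperm, against 87.5, 786 and 1197 CPM in cauda Control head embryos. All 9 whole-sperm embryos fell below the Control head median, and the ranges overlapped (-3.16 ± 0.43, limma adjusted p = 3.61e-09). With rete sperm, Cdk1 was at 52.9, 112 and 315 CPM in embryos from rete whole sperm, against 26.8, 569 and 1155 CPM in rete Control head embryos (-1.56 ± 0.39, limma adjusted p = 0.00145). Its partner cyclin B1 was lower too. Ccnb1 had a lowest, median and highest level of 251, 1061 and 2275 CPM in embryos from cauda whole sperm, against 789, 2490 and 4063 CPM in cauda Control head embryos (-1.37 ± 0.24, limma adjusted p = 1.64e-06). For rete sperm the difference was -1.01 ± 0.22 (limma adjusted p = 2.96e-04), with all 12 whole-sperm embryos below the Control head median.

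Cdc20 activates the anaphase-promoting complex, the ligase that destroys cyclin B at the end of mitosis. Cdc20 had a lowest, median and highest level of 34.0, 57.5 and 212 CPM in embryos from cauda whole sperm, against 36.4, 581 and 1488 CPM in cauda Control head embryos (-2.74 ± 0.53, limma adjusted p = 8.93e-06). With rete sperm its log2 fold change was -1.70 ± 0.48 (limma adjusted p = 0.00468). The spindle checkpoint genes Bub1, Bub1b and Bub3 passed in neither comparison, with log2 fold changes of -0.16 ± 0.38, 0.20 ± 0.46 and -0.24 ± 0.44 for cauda sperm. Of the kinases, Aurka, which acts at spindle poles, was lower in both comparisons (-1.96 ± 0.36 for cauda and -1.29 ± 0.32 for rete sperm). Aurkc, the Aurora kinase of germ cells, was also lower in both (-1.75 ± 0.34 and -1.20 ± 0.31). Aurkb (-2.43 ± 0.59) and Plk1 (-0.99 ± 0.33) were lower with cauda sperm.

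Of the S-phase kinases and cyclins, Cdk2 was lower in both comparisons (-2.64 ± 0.39 for cauda and -0.91 ± 0.34 for rete sperm, limma adjusted p = 1.90e-08 and 0.0330). Ccna2 was lower in both (-1.25 ± 0.21 and -0.49 ± 0.19). Ccne1, encoding cyclin E1, which starts S phase with Cdk2, was lower with cauda sperm (-2.04 ± 0.33, limma adjusted p = 1.81e-07) and had -0.34 ± 0.29 with rete sperm. Ccne2, Ccnb2, Ccnb3, Ccnd1 and Ccnd3 passed in neither. Some other settings called Ccnd3 higher with cauda sperm, such as leaving out embryos of few detected genes (limma adjusted p = 0.0106, beside 0.0617 with them). Ccnb2 was called higher there under quantile normalization (limma adjusted p = 0.0229). Ccnb1ip1, which matches the pattern by name but encodes a meiotic crossover factor and not a cyclin, was lower in both (-2.93 ± 0.53 and -2.04 ± 0.47). Of the phosphatases that activate Cdks, Cdc25c was lower with cauda sperm (-2.47 ± 0.41, limma adjusted p = 2.75e-07), and Cdc25a had 0.13 ± 0.43.

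The 5 genes higher in both comparisons were Cdc25b, Cdk20, E2f2, E2f4 and Plk4. Cdc25b is the phosphatase that mouse oocytes need to resume meiosis. Cdc25b had a lowest, median and highest level of 66.4, 299 and 756 CPM in embryos from cauda whole sperm, against 8.49, 43.8 and 297 CPM in cauda Control head embryos. All 9 whole-sperm embryos exceeded the Control head median (2.60 ± 0.46, limma adjusted p = 1.32e-06). In rete sperm the levels were 144, 249.9 and 445 CPM in embryos from rete whole sperm, against 17.4, 94.7 and 262 CPM in rete Control head embryos, and all 12 whole-sperm embryos exceeded the Control head median (1.61 ± 0.41, limma adjusted p = 0.00191). Plk4 is the kinase that controls centriole duplication. Plk4 had a lowest, median and highest level of 332, 459.5 and 1108 CPM in embryos from cauda whole sperm, against 107, 175 and 687 CPM in cauda Control head embryos (1.27 ± 0.30, limma adjusted p = 1.87e-04). With rete sperm Plk4 differed by 0.81 ± 0.27 (limma adjusted p = 0.0141), again with every whole-sperm embryo above the Control head median. Cdk20, a kinase linked to cilia, differed by 1.88 ± 0.33 with cauda and 1.08 ± 0.29 with rete sperm.

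Of the 4 E2F factors, E2f2 was higher in both comparisons (1.81 ± 0.38 for cauda and 0.89 ± 0.34 for rete sperm, limma adjusted p = 3.88e-05 and 0.0367). E2f4, a repressor that works with pocket proteins, was higher in both as well (1.47 ± 0.28 and 0.82 ± 0.25). E2f5 passed in neither, at 0.68 ± 0.46 and 0.17 ± 0.41. E2f1, the activating factor best known for switching on S-phase genes, was lower with rete whole sperm (-0.98 ± 0.31, limma adjusted p = 0.0109) and had 0.06 ± 0.34 with cauda sperm. The rete Control head embryos used here are also the reference for diet in rete heads below, so the results for E2f1 in these comparisons are not independent. Among the Cdks outside the core cycle, Cdk5 was higher (1.68 ± 0.61) and Cdk9, a kinase of transcription elongation, lower (-1.42 ± 0.44) with cauda whole sperm. Cdk7, Cdk8, Cdk12, Cdk13, Cdk14, Cdk16 and Cdk17 passed in neither comparison, although some other settings called Cdk14 higher with cauda sperm. Other settings ended some of these calls. With cauda sperm they were those of Cdk4 (-1.20 ± 0.54), Cdk9, Cdt1, Mcm2, Mcm4, Mcm5, Mcm10 and Plk1, and with rete sperm those of Ccna2, Cdk2, E2f1, E2f2 and Orc4.

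**Figure D2:**
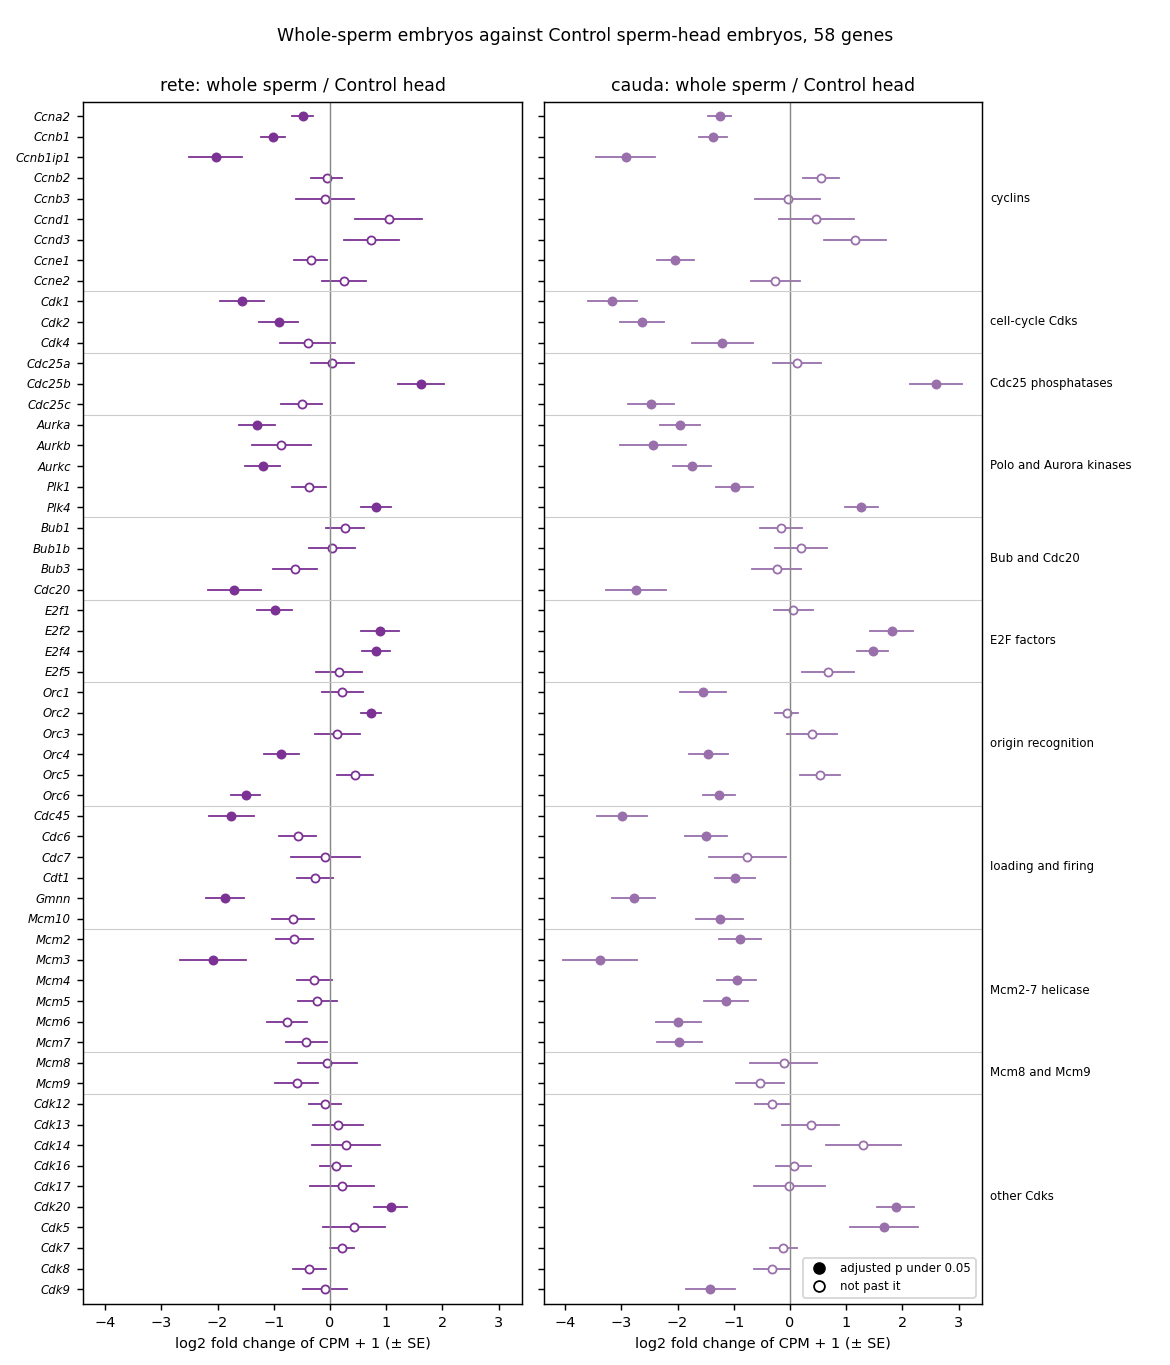
Log2 fold change of CPM + 1 (± SE) of each of the 58 genes, whole-sperm embryos over Control head embryos, for rete sperm (left) and cauda sperm (right), with genes grouped by role and filled points for a limma adjusted p under 0.05. Filled points lie mostly left of 0, with 28 lower and 6 higher for cauda and 14 lower and 6 higher for rete sperm.

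**Figure D3:**
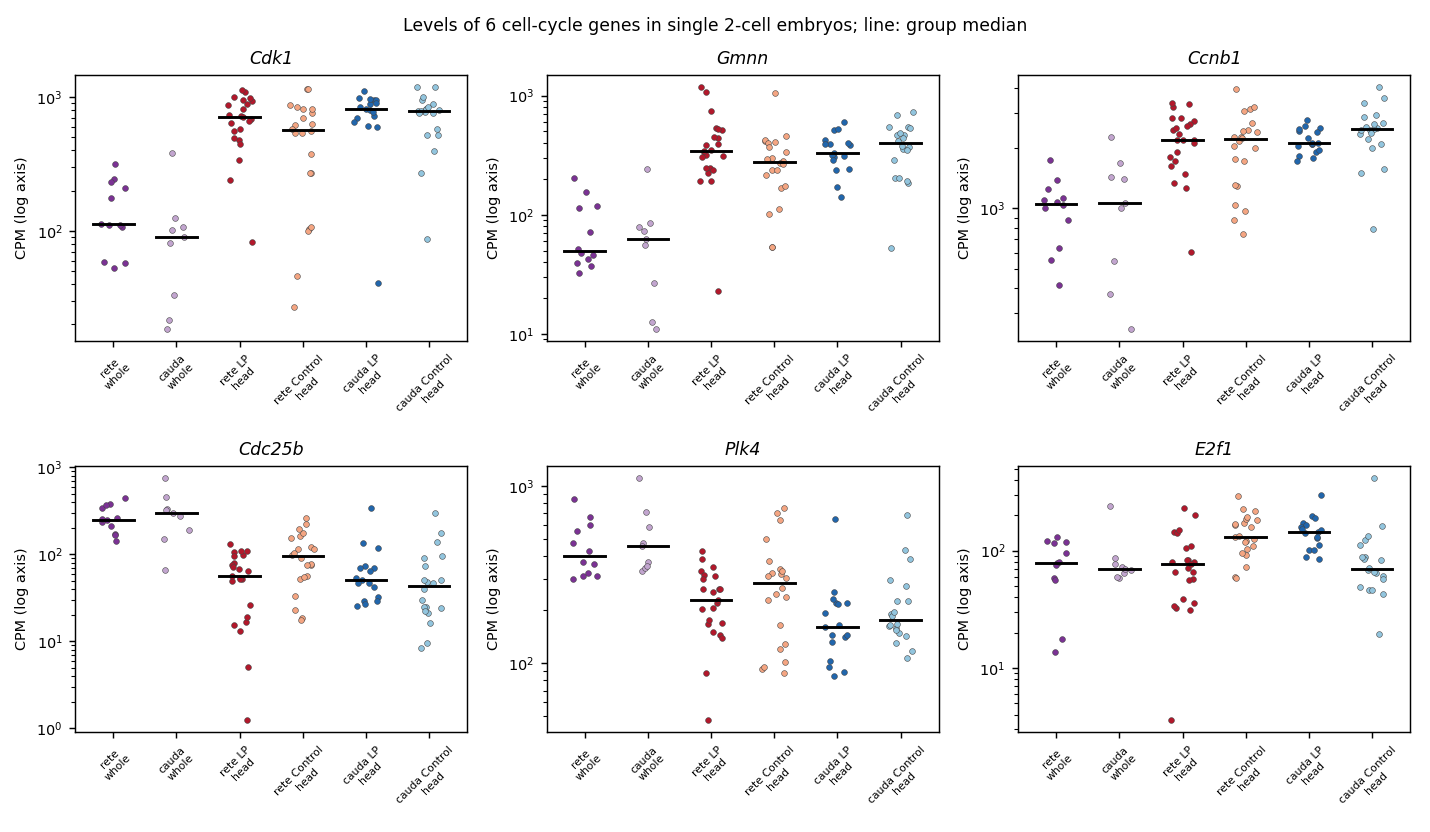
Levels of 6 genes in every embryo (points, CPM on a log axis) by group, with the group median as a line. Cdk1, Gmnn and Ccnb1 are low and Cdc25b and Plk4 high in the 2 whole-sperm groups, while E2f1 is high in rete Control and cauda LP head embryos.

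Genes that work beside these 58 gave the following counts. Of 40 replication fork and DNA precursor genes, 20 were lower and 4 higher with cauda whole sperm, and 11 lower and 4 higher with rete whole sperm. Examples for cauda sperm are Tipin, a fork protection factor (-2.43 ± 0.33), Rrm2, a subunit of ribonucleotide reductase (-1.72 ± 0.26), and Prim2, a primase subunit (-3.19 ± 0.55). Of 37 cohesin, condensin and segregation genes, 21 were lower and 0 higher with cauda sperm, and 12 lower and 1 higher with rete sperm. Among them the mitotic kinesin Kif11 had -3.44 ± 0.49 and the spindle factor Tpx2 -2.31 ± 0.37 with cauda sperm. Of 26 anaphase-promoting complex and spindle checkpoint genes, 12 were lower and 2 higher with cauda sperm and 10 lower and 2 higher with rete sperm. Ube2c, the E2 enzyme of that complex, had -2.23 ± 0.35 and -1.52 ± 0.31. Of 17 Cdk regulators and pocket proteins, 5 were lower and 3 higher with cauda sperm, and 5 lower and 2 higher with rete sperm. Tfdp1, the DNA-binding partner of E2F factors, was higher in both (1.50 ± 0.32 and 0.95 ± 0.29). By their share of calls the Cdk regulators, with 29.4% lower and 17.6% higher, lay below the 34.3% and 24.4% of all genes for cauda sperm. Of 11 DNA damage checkpoint genes, 7 were lower and 1 higher with cauda sperm, and 4 lower and 0 higher with rete sperm. For cauda sperm the share lower in the other 4 lists ran from 46.2 to 63.6%, against 34.3% of all genes, and for rete sperm the share lower in the 5 lists ran from 27.5 to 38.5%, against 19.5% of all genes.

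Other measures were compared between the same groups. Ribosome biogenesis genes, an early target of embryonic transcription, were lower in 66 of 67 cases with cauda whole sperm and in 45 of 67 with rete whole sperm. These shares were 98.5% and 67.2%, beside 34.3% and 19.5% of all genes. The mean log2(CPM + 1) of the ribosome biogenesis genes had a median of 4.63 in rete and 4.28 in cauda whole-sperm embryos, against 6.81 in rete and 7.25 in cauda Control head embryos. Of 48 maternal transcripts, which are stored in the oocyte, 20 were higher and 1 lower with cauda whole sperm, and 5 were higher and 3 lower with rete whole sperm. With cauda sperm these were 41.7% higher and 2.08% lower, beside 24.4% and 34.3% of all genes. With rete sperm they were 10.4% higher and 6.25% lower, both below the 14.1% and 19.5% of all genes. Of the few markers of other cells in the table, limma called 5 with cauda whole sperm. With rete whole sperm Amhr2 (-1.50 ± 0.67), Ldhc (-1.10 ± 0.51) and Odf2 (0.52 ± 0.26) had an unadjusted p under 0.05, and no marker passed. For cauda sperm the cumulus markers Amhr2 (-4.18 ± 0.75) and Gja1 (-1.61 ± 0.60), the sperm marker Ldhc (-2.85 ± 0.56) and the testicular somatic marker Gata4 (-1.75 ± 0.63) were lower, and the cumulus marker Serpine2 was higher (1.94 ± 0.46). Odf2, also a sperm marker, and the epididymal Aqp9 did not pass. The cumulus markers summed to 101 to 294 CPM in rete and 91.9 to 586 CPM in cauda whole-sperm embryos, against 133 to 446 CPM in rete and 112 to 401 CPM in cauda Control head embryos. The sperm markers summed to 166 to 795 CPM in rete and 92.2 to 392 CPM in cauda whole-sperm embryos, against 132 to 490.2 CPM in rete and 121 to 679 CPM in cauda Control head embryos. Gata4 ran over 37.4 to 233 CPM in rete and 2.81 to 219 CPM in cauda whole-sperm embryos, against 11.8 to 742 CPM in rete and 9.55 to 761 CPM in cauda Control head embryos. All these ranges overlapped between preparations. Markers on these lists that are not in the table have no value here. The part of these differences and of depth in the results above was not tested beyond a fit with log2 depth as a covariate. That fit was added after seeing the data and gave 21 members lower and 7 higher with cauda sperm, and 11 lower and 6 higher with rete sperm.

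Promoter sequences of the members were also examined. RefSeq promoters on GRCm38.p6 (the mm10 assembly), from 250 bases before to 50 after an annotated start, were matched for 47 of the 58 genes. They were searched on both strands for E2F sites (TTTGGCGC, TTTCCCGC, TTTGCCGC or TTTCGCGC), for the cell cycle homology region of mitotic genes (TTTGAA or TTCGAA) and for the CCAAT box. An E2F spelling was present in 13 of 47 member promoters (27.7%), against 5.1% of the 6415 measured genes with a RefSeq promoter and 2.6% of all 27025 RefSeq genes with one. The cell cycle homology spelling was present in 31.9% of member promoters against 16.7% of measured and 21.7% of all genes, and CCAAT in 63.8% against 44.8% and 41.1%. Of the 13 genes with an E2F spelling 9 were lower and 1 higher with cauda whole sperm, and of the 34 without one 14 were lower and 3 higher. With rete whole sperm 3 of the 13 were lower and 1 higher, and 9 of the 34 were lower and 4 higher. For the cell cycle homology spelling 7 of 15 genes with it and 16 of 32 without it were lower with cauda whole sperm, and 4 of 15 and 8 of 32 with rete whole sperm. For CCAAT these were 18 of 30 with it and 5 of 17 without it with cauda whole sperm, and 10 of 30 and 2 of 17 with rete whole sperm. A match is a description of the letters in the window and not evidence of binding. Some genes, among them Bub3, E2f2, Mcm7 and Orc2, had more than 1 window, and a spelling counted if any window held it. The Orc1 window begins at base 108579204 of chromosome 4, inside the gene, whose own start is at 108575705.

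Stretches of 7 of these promoters are shown to compare genes lower with cauda whole sperm (Cdk1, Mcm6, Orc1, Cdk2 and Ccnb1) with one that was higher (Plk4) and one that did not pass (Orc5). Capitals mark the spellings searched for, on either strand, where CCAAT can read as ATTGG. In Mcm6 the first capital run holds 2 overlapping E2F spellings, one on each strand. The stretches lie at Cdk1 chr10:69352913-69353052 (- strand), Mcm6 chr1:128359706-128359825 (- strand), Orc1 chr4:108579324-108579453 (+ strand), Cdk2 chr10:128705052-128705201 (- strand), Ccnb1 chr13:100786487-100786596 (- strand), Plk4 chr3:40799851-40799950 (+ strand) and Orc5 chr5:22550339-22550438 (- strand), and each is written 5′ to 3′ along its gene.
Cdk1: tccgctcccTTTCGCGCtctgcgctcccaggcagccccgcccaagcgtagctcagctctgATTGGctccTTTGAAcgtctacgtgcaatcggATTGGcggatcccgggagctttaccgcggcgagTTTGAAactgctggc
Mcm6: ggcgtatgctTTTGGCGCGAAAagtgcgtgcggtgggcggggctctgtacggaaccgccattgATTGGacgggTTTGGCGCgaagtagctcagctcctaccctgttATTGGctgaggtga
Orc1: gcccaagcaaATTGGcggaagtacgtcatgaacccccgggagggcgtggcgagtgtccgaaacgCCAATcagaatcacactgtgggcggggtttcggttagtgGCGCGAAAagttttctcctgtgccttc
Cdk2: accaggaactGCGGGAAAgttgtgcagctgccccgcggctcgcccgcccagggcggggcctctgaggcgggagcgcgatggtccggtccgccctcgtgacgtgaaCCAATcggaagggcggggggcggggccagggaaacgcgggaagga
Ccnb1: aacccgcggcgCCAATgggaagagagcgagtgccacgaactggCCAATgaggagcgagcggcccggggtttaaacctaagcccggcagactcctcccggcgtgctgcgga
Plk4: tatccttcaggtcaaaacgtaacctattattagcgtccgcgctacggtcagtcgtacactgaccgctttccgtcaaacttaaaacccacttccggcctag
Orc5: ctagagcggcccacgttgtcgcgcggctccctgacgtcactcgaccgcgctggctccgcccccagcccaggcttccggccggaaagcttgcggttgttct

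In these stretches Cdk1 and Mcm6 hold both an E2F spelling and a CCAAT box, as does Orc1. Cdk1 also holds the cell cycle homology spelling more than once. Cdk2 also holds an E2F spelling and a CCAAT box, and Ccnb1 holds CCAAT boxes without an E2F spelling. Plk4 and Orc5 hold none of the spellings, either in the stretches shown or in the rest of the window searched. Cdk1 has a further CCAAT box upstream of its stretch. The genes shown do not stand for all members. E2f2, higher in both comparisons, held an E2F spelling, the cell cycle homology spelling and CCAAT. Cdc25b, also higher in both, held the cell cycle homology spelling and CCAAT. Ccne1 and Ccnb1ip1, lower with cauda whole sperm, held none of the spellings.

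Paternal diet was compared within sperm heads, LP against Control, to ask whether a father's diet reaches the embryo through sperm of either source. In rete heads (23 against 22 embryos) 0 of the 58 genes were higher and 2 were lower in LP embryos, beside 1.49% of all 7894 genes that changed (0.393% higher and 1.1% lower). The 2 were E2f1 and Cdk5. E2f1 lies on chromosome 2, 154559400 to 154569892 (mm10). E2f1 had a lowest, median and highest level of 3.61, 76.6 and 229 CPM in rete LP head embryos, against 58.7, 132 and 291 CPM in rete Control head embryos. Of the 23 LP embryos 18 lay below the Control median, and the groups overlapped widely (-0.98 ± 0.25, limma adjusted p = 0.0304). Cdk5, a kinase best known from neurons, was near the limit of detection. Cdk5 had a lowest, median and highest level of 0.1, 0.307 and 25.1 CPM in rete LP head embryos, against 0.1, 8.76 and 46.4 CPM in rete Control head embryos, where 0.1 stands for no reads. Its log2 fold change was -1.67 ± 0.47 (limma adjusted p = 0.0428). These calls depend on the fit: with only the 2 groups compared in the model the adjusted p was 0.104 for E2f1 and 0.0998 for Cdk5, and a rank-sum test called 0 members. With the most similar pairs of embryos averaged, neither gene passed (limma adjusted p = 0.0553 for E2f1 and 0.0769 for Cdk5). Over all genes 31 of the 118 calls were higher, against 143 of 292 under quantile normalization and 217 of 348 under median-of-ratios scaling.

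E2f2, the other activating factor measured, had -1.01 ± 0.30 and Cdk2 0.88 ± 0.26 in rete LP embryos, with limma adjusted p = 0.0525 and 0.0546, just short of the threshold, which both passed under quantile normalization and under median-of-ratios scaling. All 6 helicase genes and all 6 loading and firing factors had positive log2 fold changes, with medians of 0.45 and 0.57 and none past the threshold. All 4 E2F factors had negative ones, with a median of -0.69. These signs were the same under quantile normalization and median-of-ratios scaling. The median of the 58 genes was 0.10, against -0.03 over all genes, of which 47.7% had a positive log2 fold change. Whether genes of one role vary independently between embryos was not tested, so these signs are a description. Maternal transcripts were lower past the threshold in 6 of 48 cases and ribosome biogenesis genes higher in 2 of 67 in this comparison. By sign, 42 of the 48 maternal transcripts were negative, with a median log2 fold change of -0.44. Of the 67 ribosome biogenesis genes 65 were positive, with a median of 0.77. The part of these lists in the result was not tested. Among the neighbouring lists the cohesin and segregation genes had 3 calls, with Stag2 (1.07 ± 0.29) and Esco1 (0.56 ± 0.14) higher and Smc2 (-1.45 ± 0.39) lower in LP embryos, and the other 4 lists had none.

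In cauda heads (17 against 20 embryos) limma called 0 members in either direction, beside 0% of all genes tested. At an unadjusted p under 0.05 it gave 1 member and 2.06% of all genes, and a rank-sum test called 0. The member was E2f1. E2f1 had a lowest, median and highest level of 84.0, 143 and 299.7 CPM in cauda LP head embryos, against 19.5, 69.2 and 416 CPM in cauda Control head embryos. All 17 LP embryos lay above the Control median, although the ranges overlapped, since single Control embryos reached higher (0.88 ± 0.28, limma adjusted p = 1.000). Orc4 had the next smallest p, with -0.51 ± 0.29. The median log2 fold change of the 58 genes was -0.04, against 0.01 over all genes.

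The diet effect on E2f1 thus had opposite signs in the 2 sources, and that difference was itself tested. The diet effect in rete heads minus that in cauda heads was -1.85 ± 0.38 on the log2 scale (95% interval -2.60 to -1.11, limma adjusted p = 0.00638). E2f1 was the 1 member called, in a test that called 0.19% of all genes, and it passed in all 10 other settings run (adjusted p from 0.000614 to 0.0252). By group, the median of E2f1 was 76.6 CPM in rete LP, 132 in rete Control, 143 in cauda LP and 69.2 in cauda Control head embryos. The 2 lower medians and the 2 higher ones each lie close together. In whole-sperm embryos E2f1 had medians of 78.9 CPM with rete and 69.8 CPM with cauda sperm. The member with the next smallest p for the difference between sources was Cdk2 (1.16 ± 0.39, limma adjusted p = 0.312), which did not pass.

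**Figure D4:**
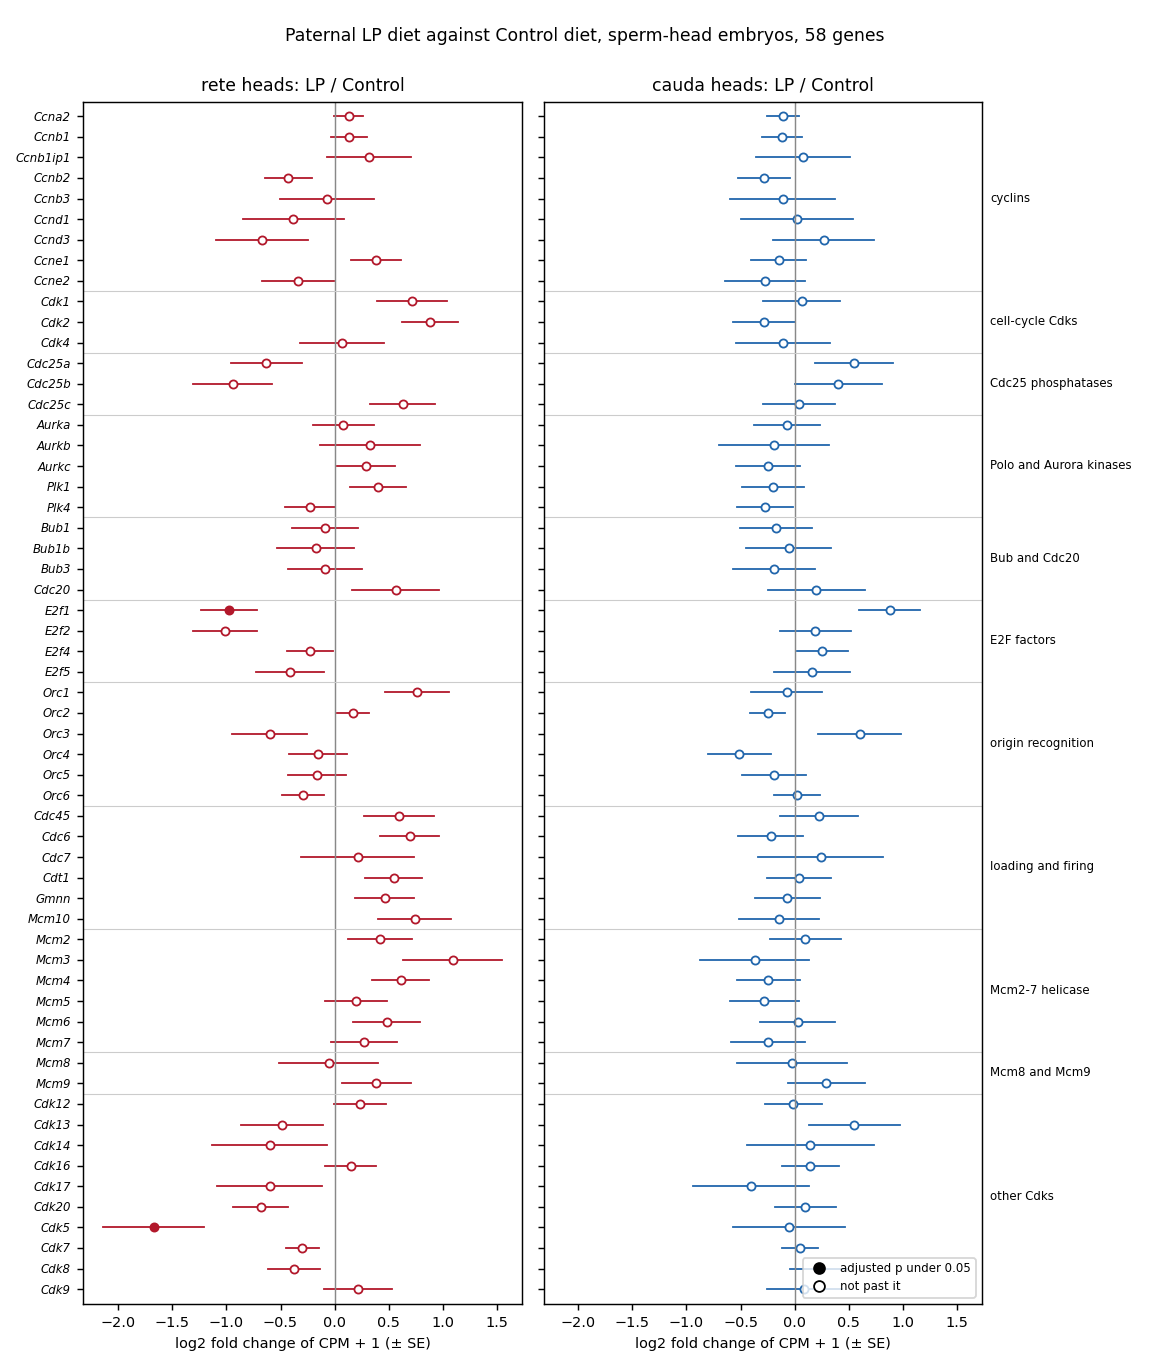
Log2 fold change of CPM + 1 (± SE) of each of the 58 genes, LP over Control head embryos, for rete heads (left) and cauda heads (right), with genes grouped by role and filled points for a limma adjusted p under 0.05. E2f1 stands at -0.98 in rete heads and 0.88 in cauda heads, and the 2 filled points are E2f1 and Cdk5 in rete heads.

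Sperm source was compared as rete against cauda. These comparisons use the same embryos as the diet and preparation comparisons. In Control heads (22 against 20) limma called 0 members and 0.038% of all genes. At an unadjusted p under 0.05 it gave 22 of the 58 members and 22.1% of all genes, and a rank-sum test called 0 members. The smallest p among the members belonged to Cdt1. Cdt1 had a lowest, median and highest level of 13.6, 133 and 249 CPM in rete Control head embryos, against 71.1, 205 and 373 CPM in cauda Control head embryos (-0.87 ± 0.27, limma adjusted p = 0.167). E2f1 came next at 0.80 ± 0.26 (limma adjusted p = 0.167), with 20 of 22 rete embryos above the cauda median. All 6 helicase genes and all 6 loading and firing factors had negative log2 fold changes, with medians of -0.65 and -0.70. The 4 E2F factors had positive ones, with a median of 0.65, and these signs were the same under both other scalings. None of these genes passed the threshold, and 43.3% of all genes had a positive log2 fold change. The rete Control head embryos are also the reference for diet in rete heads, so the signs of the 2 comparisons are not independent. In the same embryos 67 of 67 ribosome biogenesis genes had negative values.

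In LP heads (23 against 17) limma again called 0 members, with 0.076% of all genes, and gave 7 of 58 members and 7.7% of all genes at an unadjusted p under 0.05. A rank-sum test called 0 members here too. E2f1 had the smallest p, at -1.05 ± 0.27 (limma adjusted p = 0.110), with 19 of 23 rete embryos below the cauda median. Cdc25a followed. Cdc25a had a lowest, median and highest level of 0.1, 18.7 and 75.0 CPM in rete LP head embryos, against 12.4, 35.9 and 120.1 CPM in cauda LP head embryos (-1.11 ± 0.35, limma adjusted p = 0.281). In whole-sperm embryos (12 against 9) limma called 0 of 57 members tested and 0% of all genes, a rank-sum test called 0 members, and 8 members and 8.51% of all genes had an unadjusted p under 0.05. Bub3, part of the spindle checkpoint, had the smallest p there. Bub3 had a lowest, median and highest level of 21.3, 39.0 and 66.1 CPM in embryos from rete whole sperm, against 43.2, 76.2 and 527 CPM in embryos from cauda whole sperm (-1.20 ± 0.35, limma adjusted p = 0.524). Cdc25c was second, with a median of 83.5 CPM in rete and 30.8 CPM in cauda whole-sperm embryos (1.27 ± 0.43, limma adjusted p = 0.527).

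Embryos of one group also differed in the relative level of maternal transcripts, which is a share and not an amount per embryo. The maternal score of an embryo is the mean log2(CPM + 1) of 48 maternal transcripts, none of which is among the 58 genes. Each gene was correlated with it over the 82 head embryos, both as deviations from the group mean, with two-sided permutation tests of 100000 resamples adjusted over all 7846 genes outside the score. The members and the score come from the same libraries and share their depth and total. Of the 58 genes 25 fell and 14 rose with the score past the threshold. Of all genes 72.8% passed, 36.9% rising and 36.0% falling, so 39 members past the threshold is close to the background. The median r of the members was -0.15, against 0.01 over all genes. Removing the 2 embryos farthest from the median score left the sign of r unchanged for 57 of the 58, and 32 of the 39 had the same sign in each of the 4 head groups.

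Cdk1 (r = -0.67, rho = -0.72), Cdc20 (r = -0.67, rho = -0.69) and Mcm3 (r = -0.64, rho = -0.65) had the most negative correlations. E2f5 (r = 0.79, rho = 0.78), Plk4 (r = 0.77, rho = 0.76) and Orc5 (r = 0.72, rho = 0.77) had the most positive. For these 6 the permutation p was 1e-05, the smallest that 100000 resamples can give, and the adjusted p was 2.66e-05 (n = 82). Without the 2 embryos farthest from the median score, r was -0.62 for Cdk1, -0.63 for Cdc20, -0.60 for Mcm3, 0.78 for E2f5, 0.75 for Plk4 and 0.73 for Orc5. Within groups, r for Cdk1 was -0.34 in rete LP, -0.79 in rete Control, -0.65 in cauda LP and -0.81 in cauda Control heads. For E2f5 it was 0.71 in rete LP, 0.80 in rete Control, 0.80 in cauda LP and 0.84 in cauda Control heads. E2f1 was among the genes that did not pass, at r = 0.16, rho = 0.13 (permutation adjusted p = 0.165).

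Over the 21 whole-sperm embryos 2 members rose and 0 fell with the score, where 8.04% of all genes passed, 5.79% rising and 2.26% falling. Under median-of-ratios scaling 11 members passed, 4 rising and 7 falling, and without the embryo of few detected genes 1 did. The 2 were Ccnb2, encoding a second B-type cyclin (r = 0.80, rho = 0.82, permutation adjusted p = 0.00560), and Orc5 (r = 0.68, rho = 0.64, permutation adjusted p = 0.0213). Without the 2 embryos farthest from the median score r was 0.81 for Ccnb2 and 0.70 for Orc5. Cdk1 had r = -0.57, rho = -0.61 there and did not pass (permutation adjusted p = 0.0545). Of the other genes most negative in head embryos, Mcm3 had r = -0.53, rho = -0.62, Cdc20 r = 0.27, rho = 0.04 and Gmnn r = 0.39, rho = 0.45 in whole-sperm embryos, and none of them passed (permutation adjusted p = 0.0949, 0.501 and 0.246). The difference in r between head and whole-sperm embryos was not tested.

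**Figure D5:**
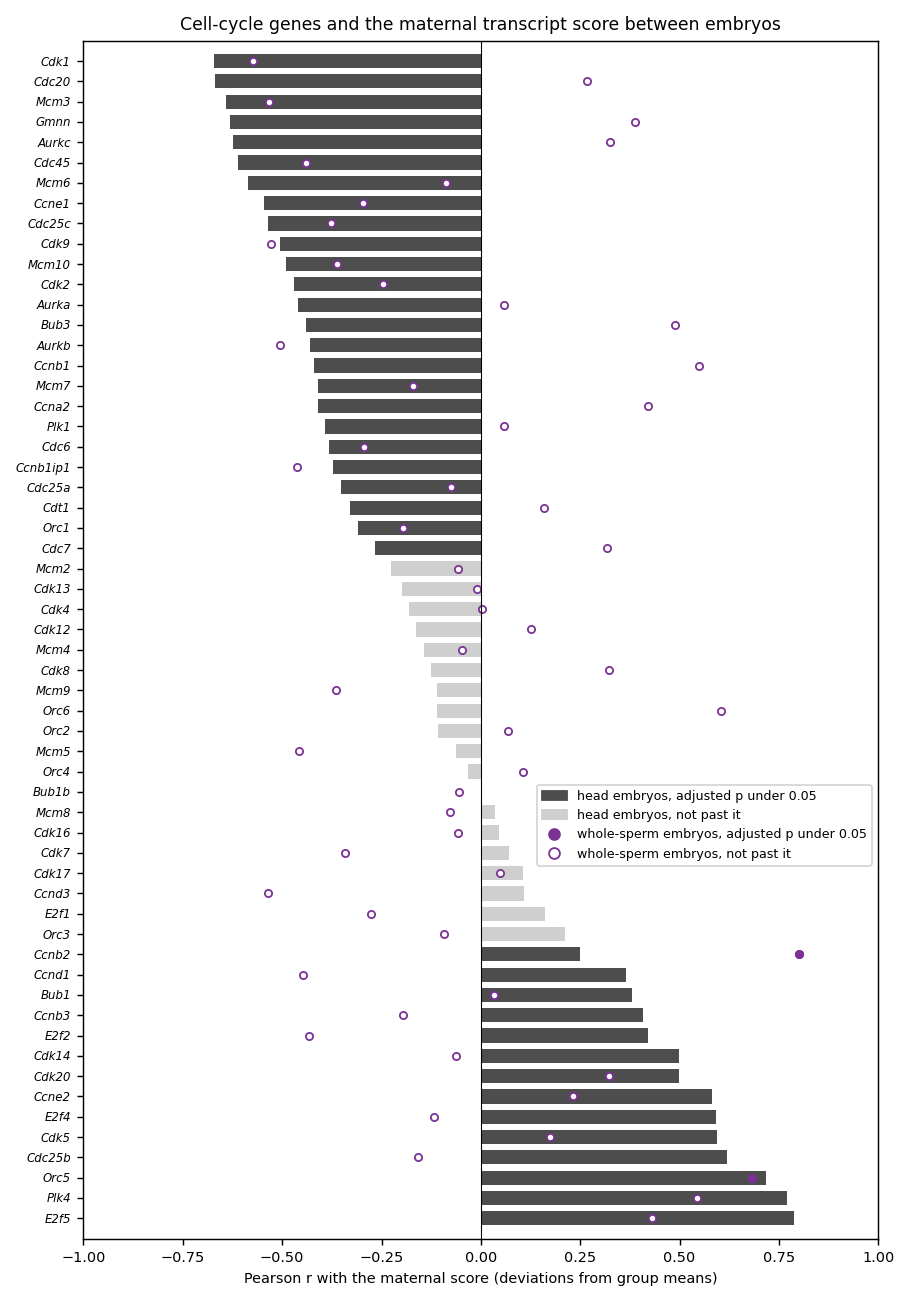
Pearson r between each of the 58 genes and the maternal score, as deviations from group means, in 82 head embryos (bars) and 21 whole-sperm embryos (circles), with dark bars and filled circles for a permutation adjusted p under 0.05. Cdk1, Cdc20 and Mcm3 lie at the negative end and E2f5, Plk4 and Orc5 at the positive end among head embryos.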

How the data were processed

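Whole-embryo libraries of FVB 2-cell embryos, in TCL buffer, were made with a Nextera single-cell kit, per the labels' protocols. Bowtie and mm10 are named in the submitters' processing notes. How reads were counted, on which strand and with which software versions is not given in the sources used here. One table of 7894 genes was deposited. The authors scaled its values to a common library size before they were deposited as CPM. This unit was read from the values, as no header names it: sums per embryo come to 92.08 to 98.15% of that size, and the low values of each are multiples of a common step. Header rows of the same deposited table, of other units, name the groups. Zeros are written as 0.1, and genes of low expression had been removed. Of low values 80.3 to 89.2% came out as whole reads (tolerance 0.001 reads), too few for a count test. Counting error is larger for head embryos, which were sequenced less deeply.

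Groups came from the labels. Fits used limma 3.58.1 in R 4.3.3 (limma-trend, robust, log2(CPM + 1), a filter of 5 CPM in 9 or more embryos, two-sided, with Benjamini-Hochberg adjustment over all genes): 82 head embryos for diet and source in heads, 21 whole-sperm embryos for their source, and all of them for preparation. A log2 fold change on this scale understates the change of low genes. Correlations with the maternal score used permutation in Python 3.11.15 (numpy 2.4.6, pandas 2.3.3, scipy 1.17.1, matplotlib 3.10.9) and were adjusted over all 7846 genes outside the score, not over the 58 members as first planned. Both steps were tested on simulated data. Gene positions and promoters are RefSeq's on GRCm38.p6, and exon overlaps are from GENCODE.

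The members and lists were chosen with earlier results of these data known. Genes named with tests are members past the threshold (at most 12 per comparison, by p), or the 2 of smallest p where fewer passed. Members past the threshold beyond these, and examples given for a role, were added so that every role is described. Alternatives were a pseudocount of 0.1 or 5, a filter of 10 CPM or none, quantile normalization, median-of-ratios scaling, only the groups compared in the fit, leaving out embryos with few detected genes, a rank-sum test and the replicate number as a block. Depth as a covariate and averaging near-identical pairs were chosen after seeing the data.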

Additional observations from a re-analysis of the deposited data

Results flagged for a closer look

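The diet effect on E2f1 in rete heads minus that in cauda heads was -1.85 on the log2 scale and differed from 0 (limma adjusted p = 0.00638), with 18 of 23 rete LP embryos below the rete Control median and 17 of 17 cauda LP embryos above the cauda Control median.

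Single cauda whole-sperm embryos stood apart from the other 8 for 8 of the 58 members, by the ratio of the gap to the nearest value over the whole range. Embryo 5, in which few genes were detected, had 527 CPM of Bub3 (the others 43.2 to 150), 167 of Aurkc (28.5 to 62.1), 58.4 of E2f4 (199 to 485), 5.22 of Ccnd3 (44.5 to 195), 2.97 of Orc1 (21.9 to 121) and 1.89 of Cdk9 (31.0 to 174). Embryo 7 had 238 CPM of E2f1 (58.5 to 85.7), and embryo 4 had 10.8 CPM of Cdk8 (57.0 to 143). Only the cauda whole-sperm group was examined in this way, so single embryos of the other groups were not checked. Of 58 such sets of values examined, chance alone marks about 1 in 20. Without embryos of few detected genes, 7 members were higher and 27 lower with cauda whole sperm than with Control heads, beside 6 and 28 with them.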

How the results depend on the processing

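For diet in rete heads the count of 2 members was 1 with a pseudocount of 0.1 and 3 with one of 5. It was 4 (1 higher, 3 lower) under quantile normalization, 4 (1 higher, 3 lower) under median-of-ratios scaling and 4 (2 higher, 2 lower) without embryos of few detected genes. It was 0 with only the groups compared in the fit, 0 by a rank-sum test, 0 with log2 depth as a covariate, and 1 with near-identical pairs averaged, which was not E2f1 or Cdk5. E2f1 passed there in 8 of 12 settings (adjusted p = 0.0145 to 0.104) and Cdk5 in 7 (0.0285 to 0.0998), and the cause was not tested. Over all genes the number called for diet in rete heads ran from 14 to 348, for the difference in diet effect between sources from 13 to 21, and for source in LP heads from 0 to 11. For the maternal score in whole-sperm embryos, 2 members became 11 (4 rising, 7 falling) under median-of-ratios scaling and 1 without embryos of few detected genes. Other counts stayed within 1.5 times, with 28 to 35 members called for preparation with cauda sperm and 17 to 24 with rete sperm. Quantile normalization moved the median log2 fold change of all genes with cauda sperm to 0.24, and median-of-ratios scaling to 0.13, beside -0.08. Over the members called and, in comparisons with fewer than 2, those of smallest p, 745 alternative values kept their side of the threshold and 39 lost it: 9 for diet in rete heads (E2f1 and Cdk5), 20 for preparation with cauda and 10 with rete sperm, with no sign reversed. Calls gained were E2f2 and Cdk2 for diet in rete heads under both scalings and some other settings, Cdc25c there without embryos of few detected genes, Ccnd3, Ccnb2 or Cdk14 with cauda sperm, and Bub3, Mcm2, Mcm6 or Mcm10 with rete sperm.

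Replicate numbers did not pair the embryos: for diet in rete heads 10 of 22 same-numbered pairs had correlated deviations above 0.1, and 1 matched best with its own number. With the replicate block, 3 members were called for diet in rete heads, 0 in cauda heads, 1 for their difference, 0 for each source comparison, 32 for preparation with cauda and 19 with rete sperm.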
